A study of Mus musculus with 5 samples.

Results

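Cells of the peritoneal lavage from female BALB/c mice were profiled 2 h after injection into the cavity, on 1 single-colour array for each of 5 injections. The 7 genes described here encode chemoattractant receptors of phagocytes: Fpr1, Fpr2, C5ar1, C3ar1, Ltb4r1, Ptafr and Cmklr1. They were taken by name, through the gene name or the RefSeq accession of each probe, and all 7 were found among 20121 named genes with a value on every array. Each was represented by 1 probe, printed once on the array, and all 7 probes were well above background on all 5 arrays by the scanner's flag. Mice received PBS as vehicle control; 50 µg of the plant polysaccharide AEPS (from Actinidia eriantha); 25 µg OVA (ovalbumin, the antigen); 25 µg OVA with 50 µg AEPS; and 200 µg alum (an aluminium salt used as adjuvant) mixed with 25 µg OVA. The age of the mice is not given, nor is whether RNA of several mice was pooled. With 1 array per injection, the spread between animals is unknown, so no difference was tested and p-values are not given. Higher and lower describe these 5 arrays only.

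These receptors belong to the large class of G protein-coupled receptors and steer neutrophils, monocytes and macrophages along gradients of molecules released at sites of infection or injury. Fpr1 and Fpr2 bind formylated peptides from bacteria and mitochondria, and Fpr2 also binds host ligands such as annexin A1 and serum amyloid A. C5ar1 and C3ar1 bind the complement fragments C5a and C3a, Ltb4r1 binds leukotriene B4, and Ptafr binds platelet-activating factor, both of them lipid mediators. Cmklr1 binds chemerin, a protein encoded by Rarres2, and in the mouse peritoneum is known as a receptor of resident macrophages. Those of them that act on neutrophils couple there mainly to inhibitory G proteins, which drive migration, granule release and the oxidative burst.

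A value is a log2 signal minus the 75th percentile of its array, called the level, and a difference is one level minus another. Its technical SE comes from the error that the scanner software gives for a spot, about 10% of the signal, and covers neither mice nor arrays. For the 7 probes that error was at most 10.1% except for Cmklr1, where it reached 17.1% on the AEPS array. Calls of higher or lower needed a 2-fold difference or more, that is 1 on the log2 scale. Levels of different probes are not set against each other, since probes differ in how well they bind.

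The arrays shared 1 slide. The PBS array lay alone in row 1, in column 4, and the OVA+Alum array lay in column 4 of row 2, below it. Both showed 163 genes at least 2-fold below all of the remaining 3 arrays, and 15 genes above them. Fpr2 is 1 of the 163, and none of the 15 is one of the receptors. In a comparison with PBS, the treatment and the row on the slide cannot be told apart. The AEPS, OVA and OVA+AEPS arrays lay in columns 1, 2 and 3 of row 2. Slide column and treatment thus cannot be told apart in any comparison except OVA+Alum with PBS.

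Promoters are shown for 2 pairs of receptors. Fpr1 and Fpr2 are next to each other in gene order and are read in opposite directions, and C3ar1 and Cmklr1 were the 2 receptors at least 2-fold lower than PBS with every injection. Each sequence runs 5′ to 3′ on the gene's own strand, from 250 bases before to 50 bases after the annotated start, from RefSeq on build GRCm38.p6. Capitals mark matches to any of 5 motifs searched on both strands: GGGA and TTCC with any 2 bases between them for NF-kB, GAAA repeated after any 2 bases for the interferon response element, TTCNNNGAA for STAT factors, TGANTCA for AP-1 and GAGGAA for PU.1.
Fpr1, chr17:17883890-17884189, minus strand: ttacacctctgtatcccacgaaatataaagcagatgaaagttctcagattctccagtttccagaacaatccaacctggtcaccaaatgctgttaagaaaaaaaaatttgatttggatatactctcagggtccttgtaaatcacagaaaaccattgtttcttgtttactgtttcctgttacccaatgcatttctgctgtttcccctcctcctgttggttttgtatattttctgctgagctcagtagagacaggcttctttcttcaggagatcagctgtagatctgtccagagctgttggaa
Fpr2, chr17:17887574-17887873, plus strand: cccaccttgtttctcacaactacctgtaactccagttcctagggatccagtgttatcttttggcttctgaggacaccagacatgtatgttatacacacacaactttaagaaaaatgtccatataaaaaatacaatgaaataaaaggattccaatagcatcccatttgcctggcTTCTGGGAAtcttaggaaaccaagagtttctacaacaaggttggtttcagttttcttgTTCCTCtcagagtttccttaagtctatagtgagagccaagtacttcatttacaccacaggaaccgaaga
C3ar1, chr6:122856108-122856407, minus strand: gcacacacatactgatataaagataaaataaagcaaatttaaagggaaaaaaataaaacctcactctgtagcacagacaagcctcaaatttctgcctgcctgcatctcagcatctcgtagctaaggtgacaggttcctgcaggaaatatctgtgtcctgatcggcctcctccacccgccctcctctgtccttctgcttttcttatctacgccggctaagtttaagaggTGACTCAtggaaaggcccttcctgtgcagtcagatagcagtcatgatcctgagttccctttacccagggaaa
Cmklr1, chr5:113643554-113643853, minus strand: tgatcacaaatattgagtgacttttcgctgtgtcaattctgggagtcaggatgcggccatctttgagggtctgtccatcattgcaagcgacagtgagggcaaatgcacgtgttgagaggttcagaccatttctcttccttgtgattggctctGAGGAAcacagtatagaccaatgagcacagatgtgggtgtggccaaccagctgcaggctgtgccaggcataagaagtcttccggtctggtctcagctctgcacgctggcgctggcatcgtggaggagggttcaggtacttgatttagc

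The Fpr1 window held no match to any of the 5 motifs. The Fpr2 window held 1 STAT match and 1 PU.1 match, the C3ar1 window 1 AP-1 match, and the Cmklr1 window 1 PU.1 match. Of the other 3 receptors, Ltb4r1 had 2 PU.1 matches, Ptafr had 1, and C5ar1 had none to any motif. No NF-kB or interferon response element match lay in any of the 7 windows. Over 32851 promoters of the same length, the share with a match was 1.47% for NF-kB, 3.44% for the interferon response element, 8.3% for STAT, 7.81% for AP-1 and 28.3% for PU.1. A match is a stretch of letters and not a measured binding site.

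Fpr1, the high-affinity formyl peptide receptor, had a level of 5.52 with PBS, 6.92 with AEPS, 6.31 with OVA, 6.79 with OVA+AEPS and 5.82 with OVA+Alum. Both arrays with AEPS were highest and the PBS array was lowest. Against PBS, Fpr1 was 2.63-fold higher with AEPS (1.39 ± 0.20, log2 difference ± technical SE) and 2.40-fold higher with OVA+AEPS (1.26 ± 0.20). It stood 0.79 ± 0.20 above PBS with OVA and 0.29 ± 0.20 above with OVA+Alum, neither of which reached 2-fold. In the order of its levels, AEPS and OVA+AEPS differed by 0.13 and OVA+Alum and PBS by 0.29, both within 2 technical SE. The 2 steps between, from OVA+AEPS to OVA (0.47) and from OVA to OVA+Alum (0.50), were larger than 2 technical SE.

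Fpr2, its neighbour gene and a receptor for formyl peptides, annexin A1 and serum amyloid A, had a level of 5.50 with PBS, 6.66 with AEPS, 6.58 with OVA, 6.66 with OVA+AEPS and 5.48 with OVA+Alum. The arrays thus fell into an upper set of 3, within 0.08 of one another, and a lower pair made up of PBS and OVA+Alum, 0.03 apart. The step between the sets was 1.08 ± 0.20. Against PBS, Fpr2 was 2.24-fold higher with AEPS, 2.11-fold with OVA and 2.23-fold with OVA+AEPS, and with OVA+Alum the difference was -0.03 ± 0.20, or 0.26 on the spike-in scale. The lower pair is also the pair of arrays in slide column 4.

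Ptafr, the receptor for platelet-activating factor, had a level of 3.81 with PBS, 5.09 with AEPS, 4.94 with OVA, 4.87 with OVA+AEPS and 4.86 with OVA+Alum. Here the PBS array stood alone below the other 4, whose steps between neighbours were at most 0.15, within 2 technical SE. The step from PBS to the next array was 1.05 ± 0.20. Ptafr was 2.43-fold higher than PBS with AEPS, 2.19-fold with OVA, 2.09-fold with OVA+AEPS and 2.07-fold with OVA+Alum. It was the only one of the 7 receptors that was at least 2-fold higher than PBS on the OVA+Alum array at the scaling used here.

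Ltb4r1, the high-affinity receptor for leukotriene B4, had a level of 2.99 with PBS, 2.86 with AEPS, 3.31 with OVA, 2.59 with OVA+AEPS and 3.98 with OVA+Alum. The OVA+Alum array was highest and the OVA+AEPS array lowest, 2.61-fold apart (1.38). Against PBS the difference was 0.98 ± 0.20 with OVA+Alum, or 1.98-fold, just short of the 2-fold call. The other 3 injections lay between -0.40 and 0.31 of PBS, each within 2 technical SE of it. The step from OVA to OVA+Alum, 0.67 ± 0.20, was the single step between neighbours larger than 2 technical SE.

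C5ar1, the main receptor for C5a, had a level of 2.11 with PBS, 1.86 with AEPS, 1.72 with OVA, 1.94 with OVA+AEPS and 1.15 with OVA+Alum. The first 4 of these formed a run in which no neighbours differed by more than 0.17, and the OVA+Alum array stood below them by 0.57 ± 0.20. Against PBS, C5ar1 was lower by 1.95-fold with OVA+Alum (-0.96 ± 0.20), again just short of 2-fold. With AEPS, OVA and OVA+AEPS the differences from PBS were -0.24, -0.39 and -0.17, all within 2 technical SE, and on the spike-in scale those with AEPS and OVA+AEPS turned to 0.36 and 0.22.

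C3ar1, the receptor for C3a, had a level of 2.06 with PBS, -0.23 with AEPS, 0.54 with OVA, -0.35 with OVA+AEPS and -0.39 with OVA+Alum. The PBS array was highest by 1.52 ± 0.20, OVA came next, and the 3 arrays with an adjuvant were lowest with steps of 0.13 and 0.03 between neighbours. Against PBS, C3ar1 was 4.88-fold lower with AEPS (-2.29 ± 0.20), 2.86-fold with OVA (-1.52 ± 0.20), 5.33-fold with OVA+AEPS (-2.41 ± 0.20) and 5.45-fold with OVA+Alum (-2.45 ± 0.20). The step of 0.77 ± 0.20 from OVA down to AEPS also exceeded 2 technical SE.

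Cmklr1, the chemerin receptor, had a level of -0.77 with PBS, -4.14 with AEPS, -2.79 with OVA, -3.77 with OVA+AEPS and -3.07 with OVA+Alum. The PBS array was again highest, by 2.01 ± 0.21, and both arrays with AEPS were lowest. The processed signal of this probe was 196 on the PBS array and between 23.4 and 63.3 on the other 4, low but well above background on each. Against PBS, Cmklr1 was 10.3-fold lower with AEPS (-3.37 ± 0.29), 4.04-fold with OVA (-2.01 ± 0.21), 7.96-fold with OVA+AEPS (-2.99 ± 0.25) and 4.93-fold with OVA+Alum (-2.30 ± 0.22). After normexp and quantile normalization the same differences were -1.74, -1.27, -1.69 and -1.34, still past 2-fold. The AEPS and OVA+AEPS levels, 0.38 ± 0.32 apart, did not differ beyond 2 technical SE, nor did those of OVA and OVA+Alum (0.29 ± 0.22).

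**Figure D1:**
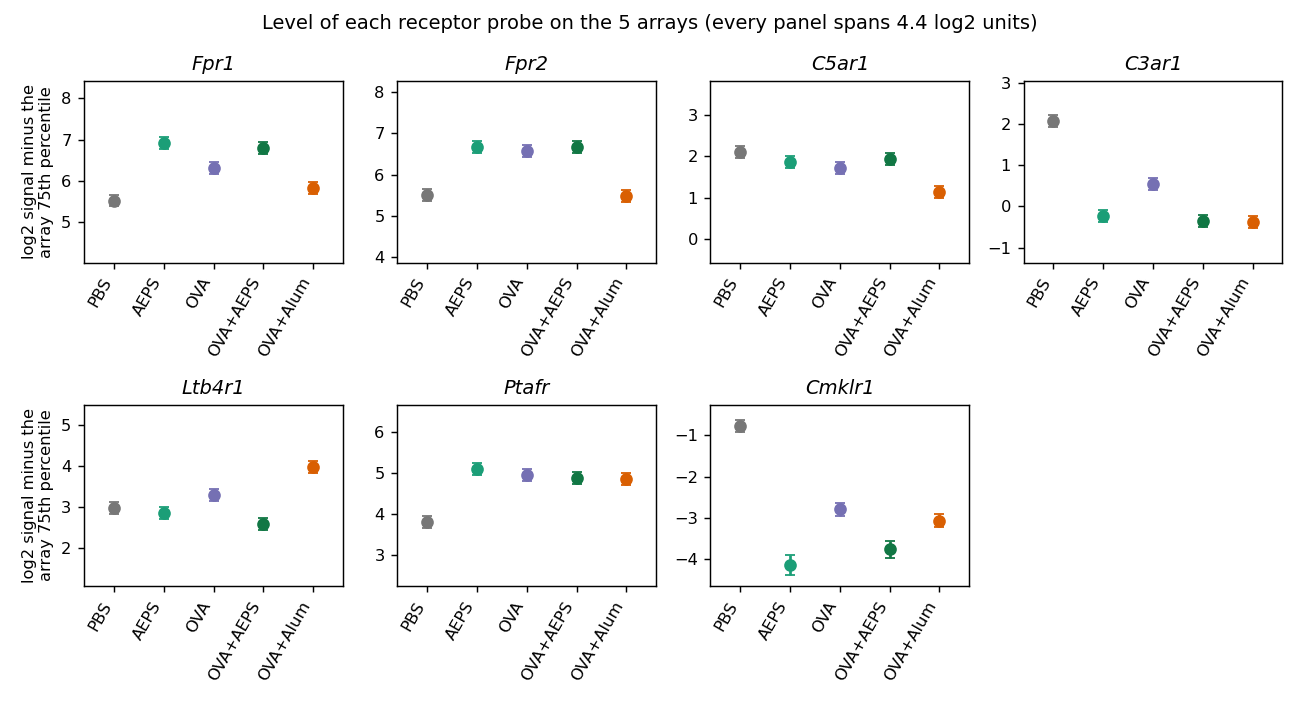
Level of each of the 7 receptor probes (log2 signal minus the 75th percentile of the array) on the 5 arrays, 1 panel per receptor. Every panel spans the same range, and bars are the scanner's technical error of 1 spot. Fpr1, Fpr2 and Ptafr are lower on the PBS array than with AEPS, OVA or OVA+AEPS, while C3ar1 and Cmklr1 are highest on it.

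The polysaccharide alone against the vehicle gave differences in both directions. With AEPS, 3 of the 7 receptors (Fpr1, Fpr2 and Ptafr) exceeded PBS by at least 2-fold, where 8.69% of 14951 genes were. C3ar1 and Cmklr1 were at least 2-fold lower, as were 6.9% of genes, and C5ar1 and Ltb4r1 were under 2-fold in either direction. The median of the 7 was -0.14, near that of all genes at -0.17, since the members called higher and those called lower lay on either side. Cmklr1 was the 28th lowest of all genes in this comparison and C3ar1 the 132nd lowest, whereas 759 genes were at least as far above PBS as Fpr1. Scaled to the spike-in probes, the median of all genes became 0.44 and 3025 genes were called higher and 321 lower, in place of 1299 and 1031. On that scale the differences of C5ar1 and Ltb4r1 turned to 0.36 and 0.47, while those of the other 5 kept their sign and their call.

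With OVA alone, Fpr2 and Ptafr exceeded PBS by at least 2-fold, beside 6.67% of 15058 genes. Fpr1, at 1.73-fold, was not called. At the 2-fold threshold it joined them only when arrays were scaled to the spike-in probes (1.06). C3ar1 and Cmklr1 were at least 2-fold lower, beside 4.09% of genes. The median of the 7 was 0.31 against -0.14 for all genes.

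With OVA+AEPS against PBS, the same 3 receptors as with AEPS alone were at least 2-fold higher (8.29% of 15013 genes) and the same 2 were lower (6.19%). OVA+AEPS and AEPS themselves differ by the antigen and share the slide row but not the column. Between them, none of the 7 was called in either direction (2.06% of 14705 genes were higher and 1.88% lower). Their differences there lay between -0.26 and 0.38, all within 2 technical SE. The counts against PBS all rest on the same PBS array.

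With OVA+Alum against PBS, which share slide column 4 but not the row, 1 receptor, Ptafr, was at least 2-fold higher (6.46% of 15095 genes) and C3ar1 and Cmklr1 were lower (5.14%). C3ar1 was the 88th lowest of all genes and Cmklr1 the 105th. Fpr1 and Fpr2, called higher on both arrays with AEPS, were within 2 technical SE of PBS here. Ltb4r1 became a second higher receptor when arrays were scaled to their median (1.11) or to the spike-in probes (1.27).

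**Figure D2:**
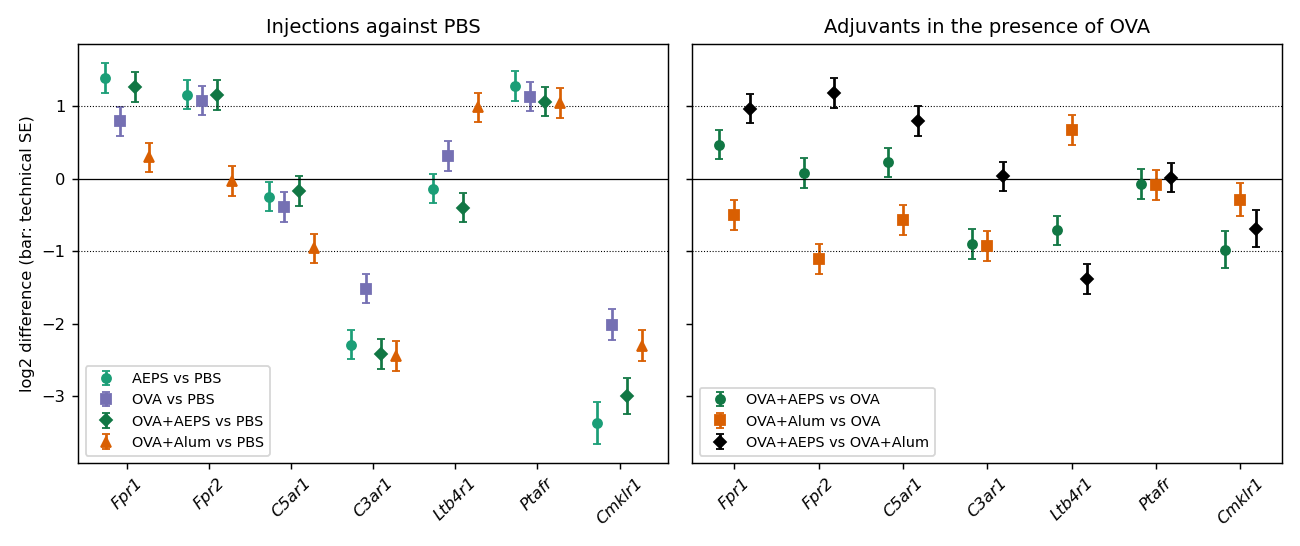
Log2 difference of each receptor between injections (points) with the technical SE (bars), against PBS on the left and among the OVA injections on the right. Dotted lines mark 2-fold. C3ar1 and Cmklr1 lie below -1 for all 4 injections, and Ltb4r1 and Fpr2 are the receptors beyond 2-fold between OVA+AEPS and OVA+Alum.

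The adjuvants were next compared in the presence of the antigen. The OVA+AEPS and OVA arrays lay in columns 3 and 2 of slide row 2. Between them no receptor reached 2-fold (4.08% of 14920 genes were higher with OVA+AEPS and 3.63% lower). Cmklr1 (-0.98 ± 0.25), C3ar1 (-0.90 ± 0.20) and Ltb4r1 (-0.71 ± 0.20) were lower with OVA+AEPS by more than 2 technical SE, and Fpr1 was higher (0.47 ± 0.20). Cmklr1 lay just inside the limit and was called lower when arrays were scaled to their median (-1.07) or in the deposited table (-1.06). AEPS against OVA, in columns 1 and 2 of slide row 2, called Cmklr1 alone, at 2.56-fold lower (4.25% of 14862 genes were higher and 3.24% lower). Normexp and quantile normalization adds an offset of 50 to the signals. After it, Cmklr1 stood at -0.41 in OVA+AEPS against OVA and at -0.47 in AEPS against OVA, and was called in neither.

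With OVA+Alum against OVA, Fpr2 was 2.15-fold lower (-1.11 ± 0.20) and the other 6 receptors were under 2-fold (4.15% of 15074 genes were higher and 5.43% lower). C3ar1 (-0.93 ± 0.20), C5ar1 (-0.57 ± 0.20) and Fpr1 (-0.50 ± 0.20) were lower by more than 2 technical SE. Ltb4r1 was the only receptor higher with alum, at 0.67 ± 0.20. The median of the 7 was -0.50, beside 0.08 for all genes.

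Set directly against each other, OVA+AEPS and OVA+Alum differed at least 2-fold for Fpr2, 2.28-fold higher with OVA+AEPS, and for Ltb4r1, 2.61-fold lower (6.76% of 15009 genes were higher and 6.44% lower). Fpr1 was higher with OVA+AEPS by 0.97 ± 0.20, just short of the call, and C5ar1 by 0.79 ± 0.20. C3ar1 and Ptafr differed by 0.03 ± 0.20 and 0.02 ± 0.20. Cmklr1 was lower with OVA+AEPS by 1.62-fold (-0.69 ± 0.26).

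The difference made by AEPS was further from 0 without OVA than with it for Fpr1, Fpr2, Ptafr, C3ar1 and Cmklr1. Over all genes too, more were called without OVA (8.69% higher and 6.9% lower) than with it (4.08% and 3.63%). AEPS minus PBS and OVA+AEPS minus OVA were 1.39 and 0.47 for Fpr1, 1.16 and 0.08 for Fpr2, 1.28 and -0.07 for Ptafr, -2.29 and -0.90 for C3ar1, and -3.37 and -0.98 for Cmklr1. For C5ar1 they were -0.24 and 0.22, both within 2 technical SE of 0, and for Ltb4r1 -0.14 and -0.71. The difference between the 2 was not tested, since each arm has 1 array, and only the PBS array lies in slide row 1 and column 4. The level reached with AEPS and with OVA+AEPS differed by less than 2 technical SE for each of the 7 receptors, as given above.

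**Figure D3:**
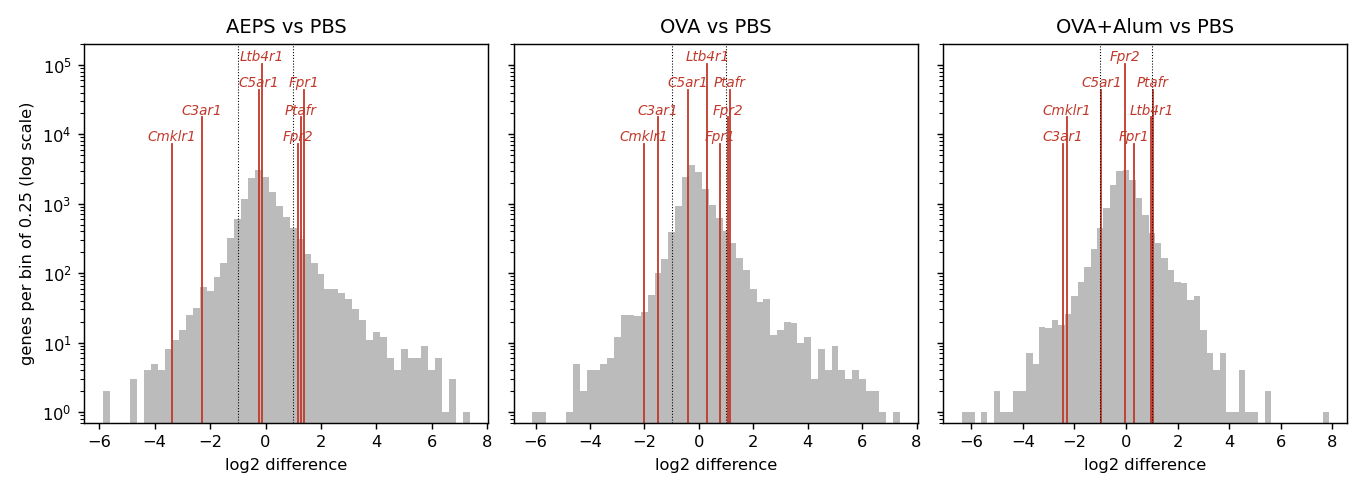
Number of genes (log scale) by log2 difference from PBS, in bins of 0.25, for AEPS, OVA and OVA+Alum, with the 7 receptors marked in red. Dotted lines mark 2-fold. Cmklr1 and C3ar1 lie in the lower tail in all 3 panels, and Fpr1 and Fpr2 move to the middle with OVA+Alum.

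Related receptors that were not among the 7 were followed through a list of 20 genes, of which 17 could be compared. Against PBS, 4 of 17 were at least 2-fold higher with each of the 4 injections, though only Cxcr2 was among them every time. With AEPS, OVA, OVA+AEPS and OVA+Alum, 3, 2, 3 and 1 were lower. Over all genes, 8.69%, 6.67%, 8.29% and 6.46% were higher and 6.9%, 4.09%, 6.19% and 5.14% lower. The list median was 0.05, 0.32, 0.18 and -0.27 in that order, beside -0.17, -0.14, -0.15 and -0.06 for all genes. Cxcr2, the receptor of neutrophils for CXC chemokines, was higher than PBS by 1.98 with AEPS, 2.35 with OVA, 1.53 with OVA+AEPS and 3.56 with OVA+Alum. Its highest level was thus on the array on which Fpr1 and Fpr2 stood near PBS. C5ar2, the second receptor for C5a, was higher by 1.19 with OVA and 1.80 with OVA+Alum, and stood at -0.25 with AEPS and -0.49 with OVA+AEPS, so that it was 4.88-fold lower with OVA+AEPS than with OVA+Alum. Ccrl2, which binds chemerin and presents it without signalling, was higher by 1.51 with AEPS and 1.62 with OVA+AEPS, and stood at 0.33 with OVA and 0.42 with OVA+Alum. Cx3cr1, the fractalkine receptor of monocytes and macrophages, was lower than PBS on all 4 arrays, from -1.24 with OVA to -2.48 with OVA+AEPS.

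The formyl peptide receptor family also holds Fpr3, Fpr-rs3, Fpr-rs4 and Fpr-rs6, which are close relatives of Fpr1 and Fpr2. Fpr-rs6 was higher than PBS by 1.09 with AEPS and 1.02 with OVA+AEPS, and stood at 0.87 with OVA and -0.27 with OVA+Alum. Fpr3 stood at 0.89, -0.10, 0.55 and -0.58 with AEPS, OVA, OVA+AEPS and OVA+Alum, and Fpr-rs3 at 0.57, 0.32, 0.54 and -0.67. Fpr-rs4 was not well above background on either array of any comparison with PBS. Between OVA+Alum and OVA, Fpr-rs6 was lower by more than 2-fold (-1.13), as Fpr2 was. Related genes can share binding to a probe, and probe sequences were not used here.

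Of 20 genes for ligands of these receptors and their synthesis or breakdown, 19 could be compared with PBS. With AEPS, 5 were called higher and 1 lower (list median 0.32). The lower one, Cfd, was not well above background on the AEPS array, where the bound is at least 1.36-fold lower, short of 2-fold. Further, with OVA 4 were higher and none lower (0.10). With OVA+AEPS 5 were higher (0.25) and with OVA+Alum 4 (0.10), and none was lower with either. Over all genes, 6.46% to 8.69% were higher and 4.09% to 6.9% lower, with medians from -0.17 to -0.06, depending on the injection. Camp, the cathelicidin whose peptide binds Fpr2, was higher on all 4 arrays, by 1.94 to 2.23. Saa2, a serum amyloid A gene, was higher by 3.18 with AEPS, 1.72 with OVA, 2.99 with OVA+AEPS and 1.78 with OVA+Alum, while Saa1, a near-identical copy that shares sequence with it, stood between -0.22 and 0.36. Because such copies can share probe binding, the split between these 2 is uncertain. Saa3, another serum amyloid A gene of the list, stood at -0.03 with AEPS, -0.12 with OVA and 0.01 with OVA+AEPS.

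Anxa1, which encodes the Fpr2 ligand annexin A1, was higher than PBS by 1.94 with AEPS, 1.93 with OVA and 1.91 with OVA+AEPS, and stood at 0.33 with OVA+Alum. Pla2g4a, the phospholipase that frees the lipid precursors of leukotrienes and platelet-activating factor, was higher by 2.04, 1.83 and 1.95 and stood at -0.11 with OVA+Alum. These 2 have the same upper set of 3 arrays and lower pair as Fpr2, and like it belong to the 163 genes of slide column 4. Of the genes that act later in leukotriene B4 synthesis, Alox5, Alox5ap and Lta4h stood between -0.57 and 0.15 on the 4 arrays. Cyp4f18, which inactivates leukotriene B4 in mouse neutrophils, was at least 2-fold higher with OVA+Alum alone (1.16). Rarres2, the chemerin gene, was higher with OVA+Alum (1.18) and stood at 0.82 with AEPS, 0.01 with OVA and 0.41 with OVA+AEPS. Hc, which encodes complement C5, was higher with AEPS (1.84) and OVA+AEPS (1.24), and C3 stood between 0.06 and 0.58.

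**Figure D4:**
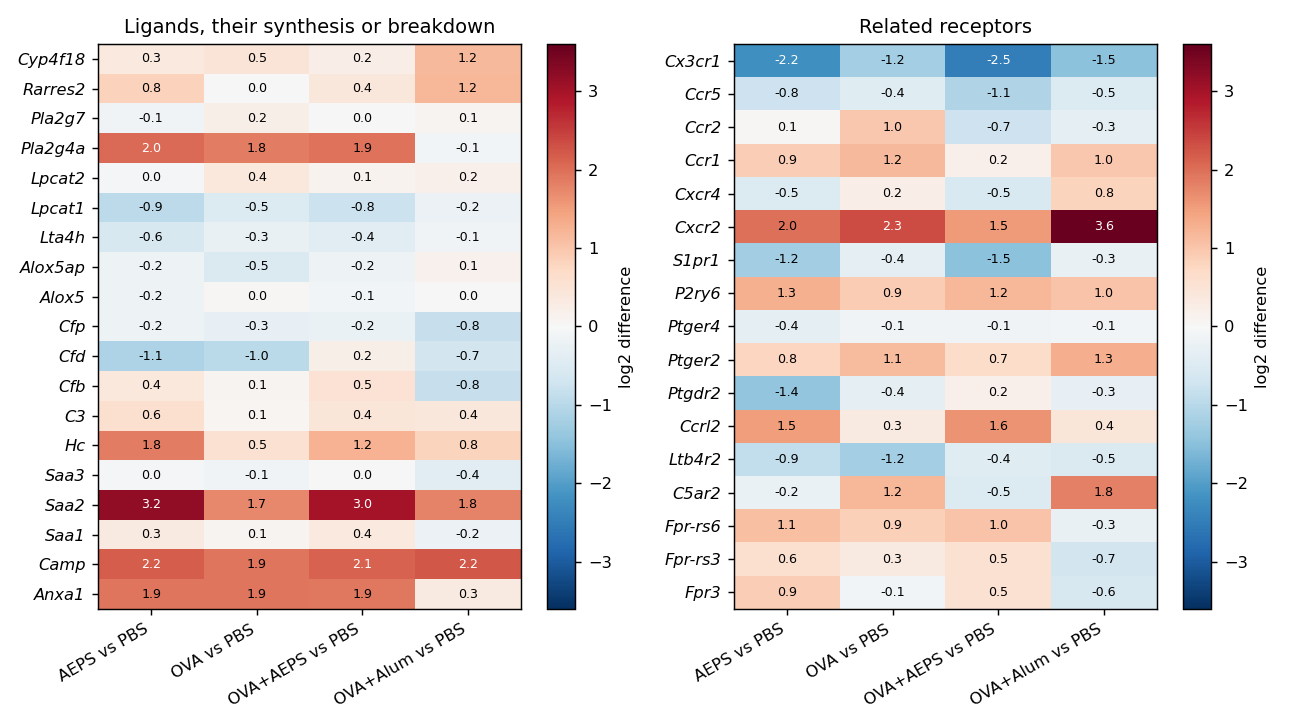
Log2 difference from PBS (colour and printed value) for each measured gene of the ligand list and of the related receptor list, 1 column per injection. Anxa1 and Pla2g4a are higher with AEPS, OVA and OVA+AEPS and near 0 with OVA+Alum, and Cxcr2 and C5ar2 are highest with OVA+Alum.

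Of 26 genes for receptor signalling and desensitisation, 1 was called higher and 2 lower than PBS with AEPS, beside 8.69% and 6.9% of all genes. With AEPS, Rgs1, a brake on G protein signalling, was at least 2-fold higher than PBS (3.37 ± 0.21), and the arrestin genes Arrb2 (-1.67 ± 0.20) and Arrb1 (-1.16 ± 0.20), whose products uncouple activated receptors, were lower. With OVA+AEPS, Rgs1 was again higher (3.30) and Arrb2 lower (-1.60). Rgs1 was also the 1 gene higher with OVA (1.83) and with OVA+Alum (1.44), and Rgs18 was the 1 lower gene with OVA+Alum (-1.38). Over all genes, 6.67%, 8.29% and 6.46% were higher than PBS with OVA, OVA+AEPS and OVA+Alum, and 4.09%, 6.19% and 5.14% were lower. The list was thus called about as often as all genes or less. The list median stood at -0.29, -0.02, -0.30 and 0.08 with AEPS, OVA, OVA+AEPS and OVA+Alum. Over all genes the median was -0.17, -0.14, -0.15 and -0.06. Genes of the main pathway such as Gnai2, the inhibitory G protein subunit through which these receptors signal, and Pik3cg, the kinase downstream of it, stood between -0.46 and 0.06 and between 0.20 and 0.76.

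The lavage is a mixture of cells, so fewer cells of a type and less RNA per cell cannot be told apart. Markers of the cells that carry these receptors differed between the arrays. Of 16 neutrophil markers, 15 were measured and well above background on every array, and 11, 12, 11 and 12 were at least 2-fold higher than PBS with AEPS, OVA, OVA+AEPS and OVA+Alum, with none lower. Over all genes, 6.46% to 8.69% were higher than PBS by that much, depending on the injection. Cxcr2 is in this list as well as among the related receptors. The median difference of these markers from PBS was 1.60, 1.43, 1.36 and 2.13 in that order. The log2 of their summed level was 10.4 with PBS and between 11.1 and 11.4 on the other arrays. Such a sum, here and for the lists below, is weighted to the brightest probes, here S100a9 and S100a8. Fpr1, Fpr2 and Ptafr thus differed from PBS in the same direction as these markers with AEPS, OVA and OVA+AEPS. With OVA+Alum, where the markers' median was highest, Ptafr and Ltb4r1 stood near 1 and Fpr1 and Fpr2 near 0.

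Of 9 inflammatory monocyte markers, 7 were compared, with median differences of 0.62, 0.70, 0.52 and 0.41. The log2 of their summed level was 8.21 with PBS and between 8.62 and 8.93 on the other arrays. All 14 markers of large peritoneal macrophages, the main resident macrophages of the cavity, were well above background on all 5 arrays. Of these, 2, 0, 1 and 11 were at least 2-fold lower than PBS with AEPS, OVA, OVA+AEPS and OVA+Alum, beside 4.09% to 6.9% of all genes. The medians of these markers were -0.41, -0.26, -0.22 and -1.33. The log2 of their summed level was 10.1 with OVA+Alum, lowest of the 5 arrays, and 10.9 with PBS, the highest. Gata6, the transcription factor on which their identity depends, differed from PBS by -1.39, -0.24, -1.37 and -1.38. The lowest of the 14 markers stood at -1.39, -0.81, -1.37 and -2.61 in the same order. With OVA+Alum that marker, Marco, was below both C3ar1 (-2.45) and Cmklr1 (-2.30), while with the other 3 injections both receptors were below the lowest marker. The part of these markers in the values of the receptors was not tested.

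**Figure D5:**
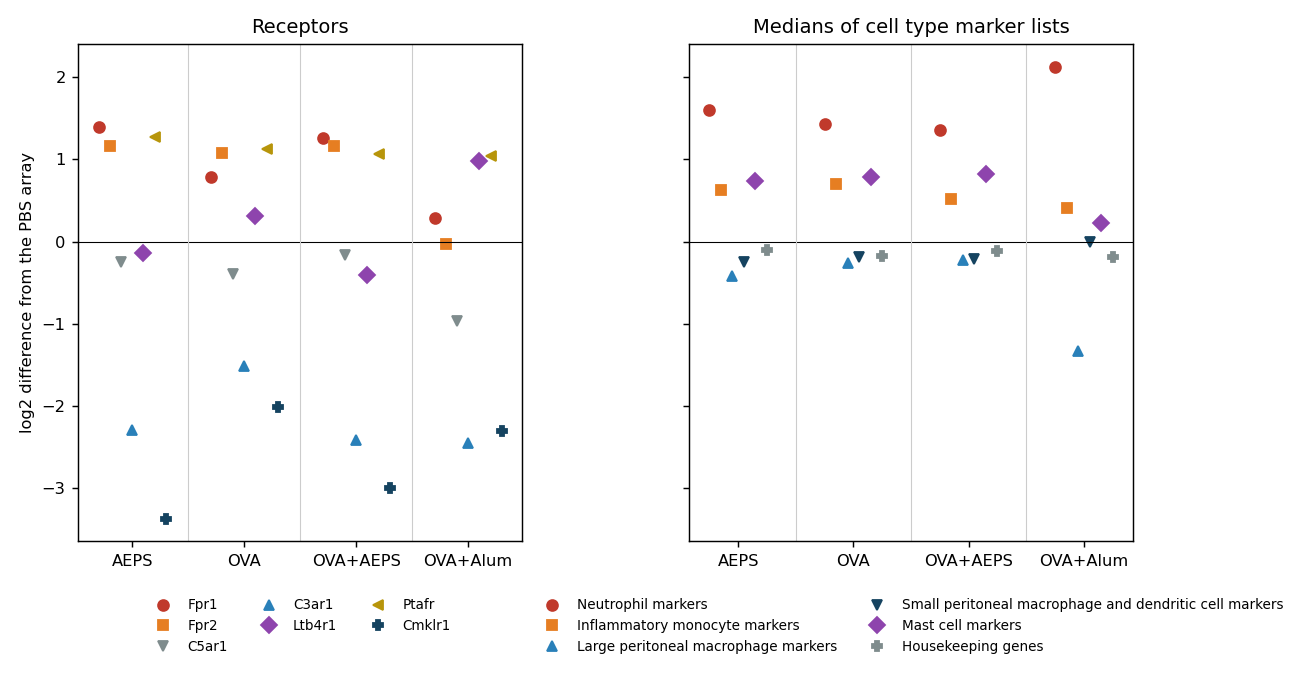
Log2 difference from the PBS array for the 7 receptors (left) and the medians of 6 gene lists (right: neutrophil, inflammatory monocyte, large peritoneal macrophage, small peritoneal macrophage with dendritic cell, mast cell, housekeeping), 1 block per injection. With OVA+Alum the neutrophil median is at 2.13 and the large peritoneal macrophage median at -1.33, while Fpr1 and Fpr2 stand at 0.29 and -0.03 there.

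Likeness of profiles was described over the 5 arrays by the root mean square difference of log2 levels, after each gene was centred on its own mean. Among the receptors, Fpr1 and Fpr2 were nearest to each other (0.21), followed by Fpr1 with Ptafr (0.35), Fpr2 with Ptafr (0.43) and C3ar1 with Cmklr1 (0.44). Fpr1 and Cmklr1 were furthest apart (1.66). Of the 13682 genes well above background on all arrays, the nearest to Fpr1 were Tank (0.05), Ctla2a (0.05) and Krtap6-5 (0.06). Those nearest to Fpr2 were Pno1, Selenot (0.04 each) and Stap1 (0.05). For Ptafr they were S100a8 (0.05), which encodes an abundant calcium-binding protein of neutrophils, I830077J02Rik (0.05) and Nek5 (0.06). For Ltb4r1 they were Adipor1, Tmcc1 (0.04 each) and Hgsnat (0.07).

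Profiles as steep as those of C3ar1 and Cmklr1 had few close matches. Within 0.2 of C3ar1 lay 4 genes, led by Dhrs3 (0.14), Fga (0.18) and Dusp23 (0.18), whereas 159 genes lay within 0.2 of Fpr1, 240 of Fpr2, 214 of Ltb4r1 and 113 of Ptafr. No gene came within 0.2 of Cmklr1, and its nearest were Plekhh3 (0.29), Klhl14 (0.34) and Slc9a3r2 (0.36). Plekhh3 differed from PBS by -3.65 with AEPS, -2.21 with OVA, -3.77 with OVA+AEPS and -2.26 with OVA+Alum. C5ar1 spanned less than 2-fold over the arrays (0.96) and was left out of this search. Over 5 points, nearness of this kind is a description and does not show shared control.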

How the data were processed

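Total RNA of peritoneal lavage cells was hybridised to single-colour (Cy3) arrays, 1 per injection. Scanner output was deposited as linear intensity, which the authors made with Agilent Feature Extraction 10.7.1.1 per the file headers (detrending within each array, surrogates near background, no step between arrays). Flags per spot in the deposited files are other values of 0 or 1. The deposited table holds log2 values with the same median (4.66) in all 5 columns. That they were quantile-normalized between arrays was inferred from these equal medians, which do not prove it, and no label states it.

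Control spots (3671 of 62976) and 134 to 219 outlier spots per array were left out, and no spot was saturated. The log2 processed signal was taken minus the 75th percentile of the array. Of 55681 probes, 26582 had 1 gene symbol through their RefSeq accession (assembly GRCm38.p6), 29099 had none and none had several. No build is named in the array files, and positions are given for promoters only. The brightest probe stood for a gene, which entered a comparison if well above background on at least 1 of the 2 arrays (56.8% to 60.1% of probes per array). Replicate spots of a probe had a median SD of 0.043 to 0.061 (log2). The number of arrays limits the precision.

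No test between groups was run. Calls were checked on simulated data, which cannot stand in for the unknown spread between animals. Named list genes are up to 4 per list and comparison with the largest difference past 2-fold, and their values elsewhere; others named with their values were chosen after these were seen. Genes nearest in profile were 3 per receptor spanning at least 2-fold. The receptors and lists were chosen with earlier results of these data known. The 9 alternatives covered scaling, background (limma 3.58.1, R 4.3.3), the deposited table, the dim-probe filter, the probe rule and the threshold. Python 3.11.15 was used.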

Additional observations from a re-analysis of the deposited data

Results flagged for a closer look

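For 2 receptors the difference made by AEPS had opposite signs without and with OVA. For C5ar1 the difference with OVA minus that without was 0.47 (-0.24 and 0.22, technical SE of the contrast 0.29), and for Ptafr it was -1.35 (1.28 and -0.07, 0.29). For C5ar1 both single differences, and for Ptafr the one with OVA, lay within 2 technical SE of 0, and the difference between the arms was not tested.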

How the results depend on the processing

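No paired analysis was possible because each injection has 1 array. Of 315 receptor differences under 5 alternatives (array median, spike-in scaling, normexp with quantile normalization, the deposited table, the median over probes), 264 lay within 1 technical SE of the value reported and none past 2-fold changed sign. The median over probes changes nothing here by construction, as each receptor has 1 probe. The other 51 came from spike-in scaling (41) and normexp with quantile normalization (10). In the latter, Cmklr1 against PBS stood at -1.74 with AEPS, -1.27 with OVA, -1.69 with OVA+AEPS and -1.34 with OVA+Alum, where the offset of 50 compares with signals of 23.4 to 196. Spike-in scaling moved the median of all genes from -0.17 to 0.44 in AEPS vs PBS, from -0.14 to 0.12 in OVA vs PBS, from -0.15 to 0.23 in OVA+AEPS vs PBS and from -0.06 to 0.22 in OVA+Alum vs PBS.

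Of 162 receptor counts under the 9 alternatives, 139 stayed within 1.5 times the count reported. Many of these could not move. Every receptor has 1 probe, well above background on every array, so changing the dim-probe filter or taking the median over probes alters no count. A count of 0 that stayed 0 is also among them. Receptors higher in OVA+Alum vs PBS numbered 2 in place of 1 with the array median, spike-in scaling and a 1.5-fold threshold, and 0 at 3-fold. At 3-fold, those higher were 0 in place of 3 with AEPS, 0 in place of 2 with OVA and 0 in place of 3 with OVA+AEPS against PBS, and those lower with OVA were 1 in place of 2. In OVA+AEPS vs OVA, those lower were 1 in place of 0 with the array median and the deposited table, and 3 at 1.5-fold. In OVA+Alum vs OVA, those higher were 1 in place of 0 at 1.5-fold, and those lower were 2 at 1.5-fold and 0 at 3-fold in place of 1. In OVA+AEPS vs OVA+Alum, those higher were 2 with spike-in scaling, 3 at 1.5-fold and 0 at 3-fold in place of 1, and those lower were 2 at 1.5-fold and 0 at 3-fold in place of 1. In AEPS vs OVA, those lower were 0 with normexp and quantile normalization, 2 at 1.5-fold and 0 at 3-fold in place of 1, and those higher were 1 in place of 0 at 1.5-fold.

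Counts over all genes moved more, with 79 of 162 beyond 1.5 times the count reported. They were 0.31 to 2.33 times as large with spike-in scaling, 0.20 to 0.61 times with normexp and quantile normalization, 1.17 to 2.02 times without a filter on dim probes and 0.29 to 0.80 times with both arrays above background. In AEPS vs PBS the higher and lower genes were 1299 and 1031, 3025 and 321 with spike-in scaling, and 786 and 341 with normexp and quantile normalization. Called genes were 62.0% higher in OVA vs PBS and 81.7% with spike-in scaling, 57.2% and 84.0% in OVA+AEPS vs PBS, 55.7% and 78.3% in OVA+Alum vs PBS, and 43.3% in OVA+Alum vs OVA and 28.0% with normexp and quantile normalization. The cause of these shifts was not tested.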

Other observations

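Markers of other cells in the lavage differed between the arrays as well. Over all genes, 6.46% to 8.69% were at least 2-fold higher than PBS and 4.09% to 6.9% lower, depending on the injection. Of 7 mesothelial markers, genes of the lining of the cavity, 5 were at least 2-fold higher than PBS with OVA+Alum (median 1.54), among them Upk3b (2.02 ± 0.22), Upk1b (1.74 ± 0.33) and Msln (1.54 ± 0.20). With AEPS, OVA and OVA+AEPS the medians were 0.84, 0.18 and 0.73, with 1, 1 and 2 genes higher. Of 10 mast cell markers, 5 were higher with AEPS, OVA and OVA+AEPS and 1 with OVA+Alum, and Cpa3, Fcer1a and Mrgprb2 of these belong to the genes that were low on both arrays of slide column 4. Hdc, the histamine-forming enzyme, does not, and was higher on all 4 arrays (1.83, 1.21, 1.66 and 1.79). The mast cell markers Cma1, Tpsb2, Mcpt4, Kit and Gata2 were under 2-fold with every injection, between -0.39 and 0.55. The mast cell list medians were 0.73, 0.79, 0.82 and 0.23 with AEPS, OVA, OVA+AEPS and OVA+Alum.

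The 8 B cell markers had medians of -0.28, -0.43, -0.24 and -0.05 with AEPS, OVA, OVA+AEPS and OVA+Alum, with 1 gene, Cd79b, lower with AEPS (-1.19) and OVA+AEPS (-1.24). The 10 T and NK cell markers had medians of 0.17, 0.13, -0.39 and 0.14, with 1 gene, Gzma, higher with AEPS (2.14-fold). Of the 5 eosinophil markers 4 were compared, with medians of 0.05, 0.33, 0.23 and -0.05. Il5ra was higher with AEPS (a log2 difference of 1.14) and OVA+AEPS (2.14-fold), and Ccr3 was lower with OVA+Alum (-1.15). Markers of small peritoneal macrophages and dendritic cells had medians of -0.25, -0.19, -0.21 and 0.00, with Flt3 lower with AEPS (-1.57) and OVA+AEPS (-1.43), Itgax lower with OVA+AEPS (-1.05) and Clec9a higher with OVA (2.14-fold). None of 8 housekeeping genes reached 2-fold against PBS, with medians from -0.19 to -0.10.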
